A study of Rhododendron with 15 samples.

Results

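Genes assigned to tryptophan metabolism, the pathway that also supplies the precursor of melatonin, were followed in leaves of Rhododendron 'xiaotaohong' under heat and melatonin. They were taken from the deposited table as the genes whose KEGG column holds the map of tryptophan metabolism and none of several other maps (among them the citrate cycle, glycolysis and fatty acid elongation), and whose description does not name a catalase. This rule used annotation only and gave 51 of the 29985 genes listed. In all, 69 genes carried the map, and the 18 left out were mainly aldehyde dehydrogenases, catalases, acetyl-CoA acetyltransferases and 2-oxoglutarate dehydrogenases. PolyA RNA of leaves was sequenced in 15 libraries, 3 in each of 5 groups. Untreated leaves were taken at 25 °C, at 35 °C and at 40 °C, and leaves to which melatonin had been applied at 35 °C and at 40 °C, all from the same variety with no genetic change named. Neither the dose of melatonin nor the time under heat was found in the labels. Separate plants or cultures are not named for the replicates either, so the p-values describe the spread among libraries, and that spread may be technical.

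Plants use tryptophan, an aromatic amino acid made in the plastid, as the starting point of several small indole compounds. In the melatonin route, a decarboxylase turns tryptophan into tryptamine, a hydroxylase gives serotonin, an N-acetyltransferase gives N-acetylserotonin, and an O-methyltransferase adds the last methyl group. In the auxin route, worked out in Arabidopsis, tryptophan aminotransferases make indole-3-pyruvate and flavin monooxygenases of the YUCCA family turn it into indole-3-acetic acid, while amidases can release the same hormone from indole-3-acetamide.

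By their KEGG entries, 17 of the 51 members were aromatic amino acid decarboxylases, 2 were acetylserotonin O-methyltransferases, 6 were tryptophan aminotransferases, 11 were indole-3-pyruvate monooxygenases and 11 were amidases. A further 2 were kynurenine transaminases, and 1 glucosyltransferase and 1 sulfotransferase carried entries of glucosinolate synthesis. The glucosyltransferase is described as UDP-glycosyltransferase 74B5 and the sulfotransferase as flavonol sulfotransferase-like, so a glucosinolate role rests on the entries. No member carried an entry for the hydroxylase or the N-acetyltransferase of the melatonin route, so the label of a melatonin precursor pathway covers its first and last steps here. The protein description named the enzyme or its family in 28 of the 51 members, but in 1 of the 17 decarboxylases, where MSTRG.1980 is described as a tyrosine decarboxylase. The other 16 are described as uncharacterized or hypothetical proteins, a protein of unknown function or a guanine nucleotide exchange factor, so their decarboxylase role rests on the KEGG entry. Several members lie side by side: 9 decarboxylase entries on chromosome 9 within 312.2 kb (28937119 to 29249332), 4 on chromosome 11 within 36.0 kb, and 2 on chromosome 13. Pairs of aminotransferases lie on chromosome 11 and on chromosome 8. Reads from such neighbours may be split between near-identical copies, so their individual counts are uncertain, and 4 members are merged loci whose counts sum over more than 1 gene name.

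Of the 51 members, 37 had enough counts to be tested. The 14 others, 8 of them in the array on chromosome 9, reached at most 0.295 FPKM (fragments per kilobase of gene, scaled to the size of the library) and at most 49 counts over all 15 libraries. Library totals were 54300447 to 68267949 counts, and the members held 0.0664 to 0.0934% of them. Leaf mesophyll markers (9 genes, Rubisco small subunits and chlorophyll a-b binding proteins) had summed levels of 14597–15534 FPKM (25 °C), 13968–14861 (35 °C) and 1954–1970 (40 °C) in untreated leaves, and of 12808–12888 (35 °C) and 10537–10639 (40 °C) under melatonin. In the same order, vascular markers (11 genes) summed to 225.5 to 228.4, 402.5 to 409.8, 35.7 to 36.9, 82.9 to 83.8 and 48.9 to 51.6 FPKM, and pollen or anther genes (11) to 29.6 to 33.4, 37.2 to 41.4, 216.4 to 229.9, 56.2 to 63.6 and 90.2 to 95.9. Their part in the results below was not tested. In bulk leaf RNA, fewer cells of a type and less RNA per cell cannot be told apart.

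The levels of the enzyme groups, as summed FPKM, moved in different directions. The 6 tryptophan aminotransferase entries summed to 181 ± 3.50 FPKM at 25 °C (mean ± SD, n = 3 here and below), 120 ± 1.59 at 35 °C and 124 ± 3.42 at 40 °C, and under melatonin to 132 ± 1.69 at 35 °C and 95.2 ± 2.93 at 40 °C. Only 4 of the 6 are described as such an enzyme. MSTRG.6862 and MSTRG.14820, described as other proteins, had means of 70.7 and 46.0 FPKM at 25 °C. The sum also mixes directions. From 35 °C to 40 °C the mean of MSTRG.20314 went from 1.865 to 46.85 FPKM, while those of the other entries fell. The 17 decarboxylase entries summed to 19.97 ± 0.576 FPKM at 25 °C, 12.8 ± 0.692 at 35 °C and 13.3 ± 1.38 at 40 °C. With melatonin they summed to 14.2 ± 1.78 at 35 °C, overlapping the untreated 35 °C libraries, and to 22.0 ± 1.07 at 40 °C. At 40 °C the decarboxylase sum was thus lower in every library without melatonin than in every library with it. Within it, MSTRG.22108, described as uncharacterized, had means of 7.13 FPKM without and 10.5 with melatonin, a change that did not pass its test below. The 2 kynurenine transaminases went from 25.2 ± 1.41 FPKM at 25 °C to 45.2 ± 0.515 at 40 °C, and were at 31.4 ± 1.36 at 40 °C with melatonin. The monooxygenase sum was highest at 35 °C with melatonin, 24.3 ± 0.791 FPKM against 15.0 ± 0.671 at 35 °C. These sums carry no test and use the deposited FPKM without further scaling.

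**Figure D1:**
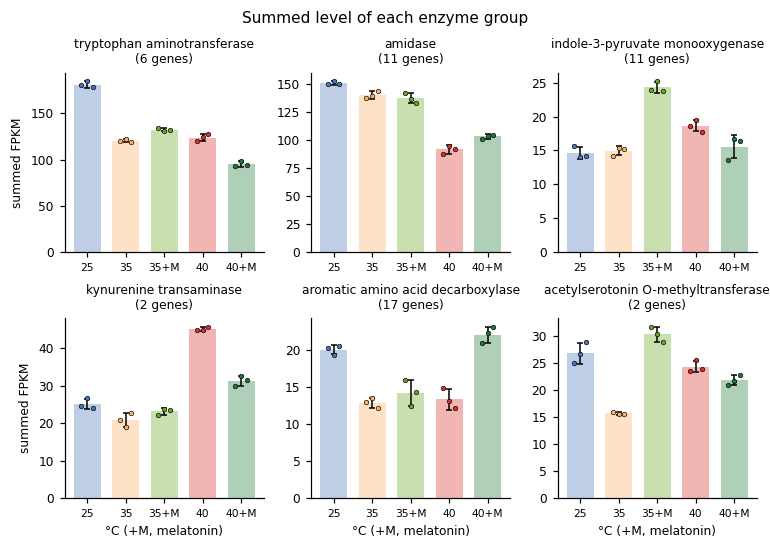
Summed FPKM of the members of each enzyme group (y axis) in the 5 groups of libraries (x axis, temperature in °C, +M for melatonin). Bars give the mean of 3 libraries, error bars the SD and points the libraries, and the kynurenine transaminase bars rise from 25.2 at 25 °C to 45.2 at 40 °C while the aminotransferase bars go from 181 to 124.

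Counted over single genes, the members changed about as often as genes in general. Tests were edgeR's quasi-likelihood test on counts, adjusted by Benjamini-Hochberg over 26183 genes, with calls at adjusted p under 0.05. At 35 °C against 25 °C, 6 members were higher and 9 lower, 40.5% of the 37 tested, beside 49.1% of all genes called (25.5% higher, 23.6% lower). Without replicate 1 of the 35 °C group, 5 in place of 9 were lower. At 40 °C against 25 °C, 11 were higher and 19 lower, 81.1% beside 75.9% (37.3% higher, 38.6% lower), and at 40 °C against 35 °C 10 were higher and 12 lower, 59.5% beside 69.3% (32.8% higher, 36.5% lower). Melatonin at 35 °C left 6 higher and 3 lower, 24.3% beside 22% of all genes (9.7% higher, 12.3% lower), and the 3 became 1 without replicate 1 or without replicate 2 of the 35 °C group. Melatonin at 40 °C left 10 higher and 11 lower, 56.8% beside 59.1% (32.9% higher, 26.2% lower). The difference between the melatonin effects was called in 19 members, 8 more positive and 11 more negative at 40 °C, 51.4% beside 48.5% (27.2% and 21.3%). These shares lie near the background, so what follows describes single genes.

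The median log2 fold change of the tested members was -0.32 at 35 °C and -0.40 at 40 °C against 25 °C, beside 0.01 and -0.01 over all genes, and -0.29 at 40 °C against 35 °C, beside -0.07. With genes at 0 counts in a whole group set to their bound and those at 0 in both groups left out, the medians were -0.39, -0.40 and -0.29. Under melatonin the medians were 0.09 at 35 °C and 0.31 at 40 °C (0.09 and 0.34 with bounds), beside 0.00 and 0.10 over all genes. At 35 °C, a limma fit on log2(FPKM + 1) put 4578 of 6656 called genes higher with melatonin, against 2540 of 5763 in the edgeR fit and 2654 of 5700 in edgeR with RLE scaling. The limma fit differs from the edgeR fit in its test, unit, genes tested and scaling. It used the deposited FPKM with no further scaling factor. The heat and melatonin comparisons share the untreated heat libraries, and their values for a gene are therefore given side by side with no statement on how they relate.

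Decarboxylases open the melatonin route. The only member described as such, tyrosine decarboxylase MSTRG.1980 (chromosome 1, 44391992 to 44399756), had 6.66, 7.27 and 7.76 FPKM at 25 °C, 7.04, 7.76 and 6.22 at 35 °C and 5.88, 4.23 and 5.35 at 40 °C. With melatonin it had 7.16, 6.27 and 7.64 FPKM at 35 °C and 7.90, 9.06 and 9.40 at 40 °C. Its 40 °C libraries were the lowest without melatonin and the highest with it, with no overlap between those groups. It fell at 40 °C against 25 °C by 0.40 ± 0.13 (SE) on the log2 scale (edgeR adjusted p = 0.011), a call that was lost without 25 °C replicate 3 (adjusted p = 0.055) or without 40 °C replicate 2 (adjusted p = 0.072, log2 fold change -0.26), within 0.0033 to 0.072 over all alternatives. Melatonin at 40 °C raised it by 0.58 ± 0.13 (edgeR adjusted p = 0.0012), and this effect was larger than that at 35 °C by 0.68 ± 0.18 (edgeR adjusted p = 0.0057).

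The decarboxylase entry with the highest level at 40 °C was MSTRG.22108, a merged locus on chromosome 13 (7484917 to 7531053). Its values were 4.93, 3.05 and 4.37 FPKM at 25 °C, 3.12, 3.34 and 2.76 at 35 °C, 8.15, 7.63 and 5.61 at 40 °C and 10.2, 11.0 and 10.5 at 40 °C with melatonin. All 40 °C libraries lay above all 25 °C ones, and it rose by 0.88 ± 0.18 against 25 °C (edgeR adjusted p = 0.00042). The difference with melatonin at 40 °C did not pass (log2 fold change 0.37 ± 0.18, edgeR adjusted p = 0.083), although those groups did not overlap. Its call as lower at 35 °C was lost without any of 4 libraries (25 °C and 35 °C, replicates 1 and 3; edgeR adjusted p 0.070 to 0.18) and in the limma fits.

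Its neighbour MSTRG.22110 (chromosome 13, 7539451 to 7540242) behaved otherwise, with 4.64, 3.81 and 3.87 FPKM at 25 °C, 1.73, 1.47 and 1.42 at 35 °C and 0.0819, 0.750 and 0.336 at 40 °C. It fell by 3.27 ± 0.60 on the log2 scale at 40 °C against 25 °C (edgeR adjusted p = 0.00019). The call at 35 °C was lost without any 1 of the 6 libraries compared (edgeR adjusted p 0.066 to 0.10) and with a replicate block (adjusted p = 0.059). The call as higher with melatonin at 40 °C, where it had 1.62, 0.541 and 1.47 FPKM and the groups overlapped, was lost without any of 4 libraries (replicates 1 and 3 of each group; edgeR adjusted p 0.12 to 0.15), with RLE scaling (adjusted p = 0.059), with no count filter, with the groups fitted alone and with the block (adjusted p = 0.083). Its log2 fold change there was 1.43, 0.94 without 40 °C replicate 1 and 2.28 without 40 °C replicate 2.

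MSTRG.16551, at the end of the chromosome 9 array and the only gene in it that was tested, was present mainly at 25 °C. It had 2.31, 2.80 and 2.66 FPKM there, 0.186, 0 and 0.286 at 35 °C and 0 counts in all 3 libraries at 40 °C. The 25 °C level, 102 to 126 counts per library, was at least 42.8-fold higher than that of 3 counts per library at 40 °C (edgeR adjusted p = 0.0010). With melatonin it had 0.231, 0 and 0.290 FPKM at 35 °C and 0, 0.433 and 0.123 at 40 °C. Its other calls, at 35 °C against 25 °C, at 40 °C against 35 °C and with melatonin at 40 °C, involve groups with at most 19 counts in any heat library and were each lost without any of 5 of the 6 libraries compared (edgeR adjusted p up to 0.068, 0.093 and 0.145). The 4 decarboxylase entries on chromosome 11 stayed at or under 1.20 FPKM in every library, and 2 of them, Rhsim11G0123200 and Rhsim11G0123400, fell at 40 °C against 25 °C (log2 fold changes -1.65 ± 0.40 and -2.07 ± 0.79). In all, 0 of the 9 tested decarboxylase entries were higher at 35 °C and 3 were lower, 1 was higher and 6 lower at 40 °C against 25 °C, and 0 were called with melatonin at 35 °C by edgeR, where 0 also had an unadjusted p under 0.05 (smallest 0.0562). DESeq2 also gave 0 at either p, and limma on log2(FPKM + 1) gave 0 adjusted and 2 unadjusted. With melatonin at 40 °C, 3 were higher and 0 lower. As given above, the 3 calls as lower at 35 °C were each lost without single libraries. So were the calls of MSTRG.22110 and MSTRG.16551 with melatonin at 40 °C. Over all genes, 49.1% were called at 35 °C, 75.9% at 40 °C against 25 °C, 22% with melatonin at 35 °C and 59.1% with melatonin at 40 °C.

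**Figure D2:**
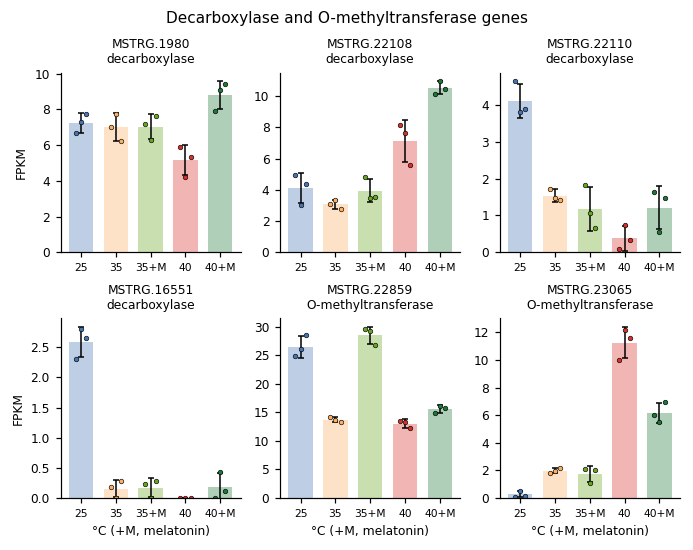
FPKM (y axis) of the 4 decarboxylase entries and 2 O-methyltransferases with a mean of at least 1 FPKM in some group, by group (x axis, temperature in °C, +M for melatonin). Bars give means of 3 libraries, error bars the SD and points the libraries, and MSTRG.23065 goes from under 1 at 25 °C to above 9 at 40 °C while MSTRG.16551 goes to 0.

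An O-methyltransferase closes the route, and the 2 members with its KEGG entry responded in opposite directions to heat. Neither description names acetylserotonin, and that of MSTRG.22859 reads only O-methyltransferase, so their place in the route rests on the entry. MSTRG.22859 (chromosome 13, 23754880 to 23757656) had 24.8, 26.0 and 28.6 FPKM at 25 °C, 14.2, 13.6 and 13.4 at 35 °C and 13.6, 13.3 and 12.2 at 40 °C. With melatonin it had 29.6, 29.2 and 26.8 FPKM at 35 °C and 14.9, 16.1 and 15.8 at 40 °C. The 35 °C libraries with melatonin overlapped the 25 °C libraries, while those at 40 °C with melatonin lay between them and the untreated 40 °C libraries. It fell by 1.01 ± 0.07 at 35 °C and by 0.93 ± 0.07 at 40 °C against 25 °C on the log2 scale (edgeR adjusted p = 3.1e-08 and 1.5e-08). Melatonin raised it by 0.95 ± 0.07 at 35 °C (edgeR adjusted p = 3.0e-07) and the change at 40 °C, 0.07 ± 0.07, did not pass (edgeR adjusted p = 0.43). The difference of those effects was -0.88 ± 0.10 (edgeR adjusted p = 4.4e-06). At 40 °C the FPKM with and without melatonin did not overlap (means 15.6 and 13.0), although the edgeR change, on counts with its own scaling, did not pass.

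MSTRG.23065 (chromosome 13, 28049791 to 28050925), described as a trans-resveratrol di-O-methyltransferase-like protein, an enzyme type that methylates stilbenes in grapevine, had 0.103, 0.537 and 0.177 FPKM at 25 °C. It had 1.79, 1.97 and 2.17 FPKM at 35 °C and 9.99, 12.2 and 11.6 at 40 °C. Each step in temperature separated the groups, and it rose by 2.74 ± 0.40 at 35 °C and by 5.39 ± 0.42 at 40 °C against 25 °C (edgeR adjusted p = 4.9e-05 and 1.9e-08). At 40 °C with melatonin its 6.02, 5.52 and 6.93 FPKM were all lower than without, a log2 fold change of -1.06 ± 0.33 (edgeR adjusted p = 0.013), a call lost in limma on log2(FPKM + 0.1) (adjusted p = 0.0502). At 35 °C the melatonin groups overlapped (log2 fold change -0.28 ± 0.34, edgeR adjusted p = 0.64).

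Tryptophan aminotransferases start the auxin route. MSTRG.20314 (chromosome 12, 4942425 to 4956160), described as an L-tryptophan-pyruvate aminotransferase and merged from 2 gene names, had 0.317, 0.532 and 0.467 FPKM at 25 °C. It had 1.96, 2.20 and 1.44 FPKM at 35 °C and 44.9, 47.0 and 48.7 at 40 °C, from 45 to 77 counts per library at 25 °C to 6679 to 8012 at 40 °C. With melatonin it had 4.90, 5.00 and 4.91 FPKM at 35 °C and 5.05, 4.99 and 5.08 at 40 °C. The level with melatonin was thus near 5 FPKM at both temperatures, above the untreated 35 °C libraries and far under the untreated 40 °C ones. It rose by 2.01 ± 0.16 at 35 °C and by 6.81 ± 0.18 at 40 °C against 25 °C (edgeR adjusted p = 1.4e-07 and 7.5e-14). Melatonin raised it by 1.297 ± 0.14 at 35 °C (edgeR adjusted p = 1.1e-05) and lowered it at 40 °C, with a log2 fold change of -3.41 ± 0.14 (edgeR adjusted p = 5.4e-11). The effects differed by -4.70 ± 0.20 (edgeR adjusted p = 1.3e-10).

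The pair of aminotransferase entries on chromosome 8 (26239751 to 26262272) was lower with heat. MSTRG.14820, whose description, angiomotin like, names another protein, had 46.2, 47.9 and 43.9 FPKM at 25 °C, 26.9, 28.1 and 27.3 at 35 °C and 5.44, 5.23 and 5.67 at 40 °C. It had 30.8, 28.8 and 25.9 FPKM at 35 °C with melatonin and 13.0, 13.6 and 13.4 at 40 °C with melatonin. The order of its levels was therefore 25 °C, then both 35 °C groups, which overlapped, then 40 °C with melatonin, then 40 °C. It fell by 2.99 ± 0.06 on the log2 scale at 40 °C against 25 °C (edgeR adjusted p = 9.6e-15) and was raised by melatonin at 40 °C by 1.10 ± 0.06 (edgeR adjusted p = 1.2e-09).

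Its neighbour MSTRG.14821, described as a tryptophan aminotransferase-related protein, had 5.43, 7.99 and 5.81 FPKM at 25 °C, 4.14, 5.77 and 4.67 at 35 °C and 0.312, 0.299 and 0.275 at 40 °C. It had 7.63, 7.31 and 7.77 FPKM at 35 °C with melatonin and 2.78, 3.41 and 2.60 at 40 °C with melatonin. No library at 40 °C without melatonin came near any other library of this gene. It fell by 4.32 ± 0.19 at 40 °C against 25 °C (edgeR adjusted p = 3.4e-11), and melatonin at 40 °C raised it by 3.09 ± 0.19 (edgeR adjusted p = 3.1e-09), more than at 35 °C by 2.56 ± 0.25 (edgeR adjusted p = 8.0e-07). Melatonin at 35 °C raised it by 0.53 ± 0.16 (edgeR adjusted p = 0.028), a call lost without any of 5 of the 6 libraries (adjusted p 0.056 to 0.095, within 0.0063 to 0.095 over all alternatives). Its call as lower at 35 °C against 25 °C, where the groups overlapped, was lost without 25 °C replicate 2 (log2 fold change -0.27, edgeR adjusted p = 0.17), without 35 °C replicate 1 or 3 (adjusted p from 0.082), and in limma on log2(FPKM + 1).

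On chromosome 11, MSTRG.19164 (19992339 to 19997641) had 55.0, 56.7 and 58.2 FPKM at 25 °C, 14.8, 16.0 and 16.9 at 35 °C and 11.1, 9.76 and 11.7 at 40 °C. It had 23.8, 22.6 and 25.6 FPKM at 35 °C with melatonin and 22.5, 26.1 and 27.3 at 40 °C with melatonin. Every library with melatonin was above every heat library without it and under every 25 °C library. It fell by 1.89 ± 0.08 at 35 °C and by 2.29 ± 0.08 at 40 °C against 25 °C (edgeR adjusted p = 1.7e-10 and 2.8e-12). Melatonin raised it by 0.49 ± 0.08 at 35 °C and by 1.03 ± 0.08 at 40 °C (edgeR adjusted p = 0.00042 and 5.0e-08), and these effects differed by 0.54 ± 0.11 (edgeR adjusted p = 0.0012). The adjacent MSTRG.19163 stayed at or under 1.10 FPKM. It fell at 40 °C against 25 °C by 2.58 ± 0.60 and was raised by melatonin at 40 °C by 2.08 ± 0.59 (edgeR adjusted p = 0.0013 and 0.0076).

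The member with the highest mean level over all libraries, MSTRG.6862 (chromosome 4, 10260927 to 10268008), moved little. It carries the aminotransferase entry but the description A-kinase anchor protein like. It had 72.6, 71.2 and 68.3 FPKM at 25 °C, 72.0, 69.0 and 67.7 at 35 °C and 58.5, 61.5 and 60.7 at 40 °C, with 66.5, 66.9 and 66.8 at 35 °C with melatonin and 49.0, 50.1 and 45.3 at 40 °C with melatonin. The last group lay under all others, with a log2 fold change against 40 °C without melatonin of -0.51 ± 0.04 (edgeR adjusted p = 1.5e-07). Over all alternatives this change was -0.59 to -0.32. Its calls at 40 °C against 25 °C (log2 fold change -0.14 ± 0.04, edgeR adjusted p = 0.010) and with melatonin at 35 °C (-0.16 ± 0.04, edgeR adjusted p = 0.015) were each lost without either of 2 libraries. These were replicate 1 of 25 °C or of 40 °C (adjusted p 0.079 to 0.085) in the first, and replicate 1 or 2 of 35 °C (adjusted p 0.067 to 0.13) in the second, which was also lost in all 3 limma fits (adjusted p up to 0.38). Of the 6 aminotransferase entries, 1 was higher and 5 lower at 40 °C against 25 °C, and 4 were higher and 2 lower with melatonin at 40 °C, beside 75.9% and 59.1% of all genes called in those comparisons.

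**Figure D3:**
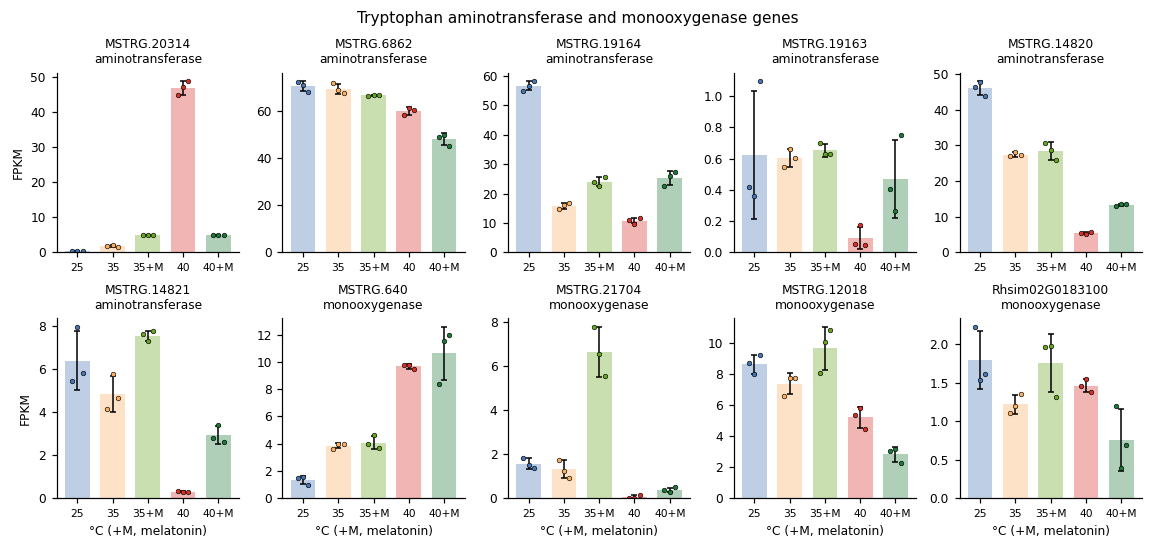
FPKM (y axis) of the 6 tryptophan aminotransferase entries and of 4 monooxygenases by group (x axis, temperature in °C, +M for melatonin). Bars give means of 3 libraries, error bars the SD and points the libraries, and MSTRG.20314 stands near 47 only at 40 °C without melatonin while MSTRG.21704 stands above 5 only at 35 °C with melatonin.

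Indole-3-pyruvate monooxygenases of the YUCCA type complete the auxin route. MSTRG.640, described as YUCCA10 (chromosome 1, 12422054 to 12486336), had 1.44, 1.51 and 0.987 FPKM at 25 °C, 3.62, 3.95 and 3.98 at 35 °C and 9.77, 9.77 and 9.48 at 40 °C. It had 3.95, 4.60 and 3.64 FPKM at 35 °C with melatonin and 8.37, 11.6 and 11.9 at 40 °C with melatonin. Temperature separated its groups and melatonin did not. It rose by 1.48 ± 0.17 at 35 °C and by 2.96 ± 0.17 at 40 °C against 25 °C (edgeR adjusted p = 4.1e-06 and 6.7e-10). The log2 fold changes with melatonin were -0.03 ± 0.16 at 35 °C and -0.06 ± 0.16 at 40 °C (edgeR adjusted p = 0.95 and 0.78).

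A second gene described as YUCCA10, MSTRG.21704 (chromosome 13, 1594667 to 1597101), had 1.83, 1.48 and 1.36 FPKM at 25 °C, 1.73, 1.25 and 0.927 at 35 °C and 7.77, 6.54 and 5.52 at 35 °C with melatonin. At 40 °C it had 0, 0 and 0.125 FPKM without melatonin and 0.357, 0.275 and 0.477 with it. Its highest group was thus 35 °C with melatonin and its lowest 40 °C, and melatonin raised it at 35 °C by 2.24 ± 0.53 (edgeR adjusted p = 0.0068). It fell at 40 °C against 25 °C, from 96 to 128 counts per library to 0, 0 and 11 (log2 fold change -4.95 ± 0.70, edgeR adjusted p = 1.5e-05, -9.92 without 40 °C replicate 3). The call as higher with melatonin at 40 °C (2.80 ± 0.73, edgeR adjusted p = 0.0041) rests on 19 to 34 counts per library, was 7.76 without 40 °C replicate 3, and was lost when the 2 groups were fitted alone (adjusted p = 0.086). The melatonin effects at the 2 temperatures did not pass the test of their difference (0.56 ± 0.87, edgeR adjusted p = 0.64).

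MSTRG.12018 (chromosome 7, 3164543 to 3168429) carries the same entry but is described as an FMO GS-OX-like protein, a type that oxidises glucosinolate side chains in Arabidopsis. It had 8.76, 8.01 and 9.24 FPKM at 25 °C, 5.38, 5.81 and 4.47 at 40 °C and 3.04, 3.15 and 2.26 at 40 °C with melatonin. It had 6.59, 7.79 and 7.79 FPKM at 35 °C and 8.11, 10.1 and 10.8 at 35 °C with melatonin. The 40 °C libraries were all lower than the 25 °C ones and those with melatonin lower still. It fell by 0.64 ± 0.15 at 40 °C against 25 °C (edgeR adjusted p = 0.0014), and the melatonin effect at 40 °C was -1.08 ± 0.15 (edgeR adjusted p = 2.7e-05). That effect was lower than at 35 °C by a log2 difference of -1.36 ± 0.21 (edgeR adjusted p = 0.00010). Rhsim02G0183100 on chromosome 2 had 1.46, 1.54 and 1.37 FPKM at 40 °C and 1.19, 0.389 and 0.689 with melatonin, a log2 fold change of -1.13 ± 0.33 (edgeR adjusted p = 0.0088). Rhsim13G0041500, singled out after its values were seen, had 0 counts in all 9 libraries of the 25 °C and both 35 °C groups and 0.732, 0.522 and 0.521 FPKM at 40 °C, at least 15.2-fold higher than 3 counts per library at 25 °C (edgeR adjusted p = 0.0019). At 40 °C with melatonin it had 0, 0.0802 and 0.031 FPKM, from 0, 6 and 3 counts. Of the 8 monooxygenase entries tested, 3 were higher and 2 lower at 40 °C against 25 °C, and 1 was higher and 4 lower with melatonin at 40 °C (75.9% and 59.1% of all genes were called).

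Amidases hydrolyse amide bonds, and these entries include proteins of the chloroplast envelope that share the amidase fold. MSTRG.24295 (contig ctg510, 146842 to 153258), the most abundant amidase, had 85.3, 85.0 and 82.7 FPKM at 25 °C, 56.6, 55.5 and 60.6 at 35 °C and 15.9, 19.6 and 18.1 at 40 °C. It had 61.1, 57.4 and 54.3 FPKM at 35 °C with melatonin and 32.0, 33.4 and 32.9 at 40 °C with melatonin. Each step in temperature separated the groups, and melatonin did so at 40 °C. It fell by 0.61 ± 0.07 at 35 °C and by 2.15 ± 0.07 at 40 °C against 25 °C (edgeR adjusted p = 2.7e-06 and 7.1e-13). Melatonin raised it at 40 °C by 0.68 ± 0.07 (edgeR adjusted p = 5.8e-07), more than at 35 °C by 0.79 ± 0.09 (edgeR adjusted p = 7.5e-06).

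MSTRG.9241 (chromosome 5, 23637404 to 23654085) went the other way, with 16.8, 18.6 and 17.4 FPKM at 25 °C, 20.2, 23.3 and 22.6 at 35 °C and 30.3, 32.6 and 30.3 at 40 °C. It had 18.1, 17.4 and 16.9 FPKM at 35 °C with melatonin and 14.6, 13.0 and 14.9 at 40 °C with melatonin. Heat separated the groups upward and melatonin downward. It rose by 0.91 ± 0.07 at 40 °C against 25 °C (edgeR adjusted p = 2.5e-08). The melatonin effects were -0.44 ± 0.07 at 35 °C and -1.32 ± 0.07 at 40 °C (edgeR adjusted p = 0.00043 and 1.0e-09), and they differed by -0.88 ± 0.10 (edgeR adjusted p = 5.4e-06).

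MSTRG.14515 (chromosome 8, 16254627 to 16297427) is described as a translocon of the outer chloroplast membrane, whose amidase-like member in pea and Arabidopsis is an import receptor. It had 11.3, 12.6 and 12.0 FPKM at 25 °C, 22.8, 20.9 and 23.6 at 35 °C and 16.5, 19.7 and 21.9 at 40 °C. Both heat groups lay above 25 °C and overlapped each other, with rises of 0.85 ± 0.09 at 35 °C and 0.79 ± 0.09 at 40 °C (edgeR adjusted p = 1.5e-06 and 1.0e-06). Rhsim05G0106400 (chromosome 5, 15053934 to 15058638), described as an outer envelope protein, had 2.26, 1.98 and 2.80 FPKM at 25 °C, 5.00, 4.29 and 3.76 at 35 °C and 5.68, 5.49 and 5.64 at 40 °C. It rose by 0.83 ± 0.18 at 35 °C and by 1.34 ± 0.18 at 40 °C against 25 °C (edgeR adjusted p = 0.0016 and 9.6e-06). Its 2.83, 3.75 and 2.47 FPKM at 35 °C with melatonin were lower than without (log2 fold change -0.63 ± 0.18, edgeR adjusted p = 0.021), a call lost without any of 4 libraries (replicates 1 and 2 of 35 °C, 1 and 3 of 35 °C with melatonin; adjusted p 0.057 to 0.11).

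MSTRG.677 on chromosome 1 had 101 to 137 counts per library at 25 °C and 23, 0 and 0 at 40 °C, and fell by 3.95 ± 1.02 on the log2 scale (edgeR adjusted p = 0.0028, -10.04 without 40 °C replicate 1). Its call against 35 °C was lost without any of 3 libraries (35 °C replicate 2, 40 °C replicates 2 and 3; edgeR adjusted p 0.055 to 0.060) and stood at -8.85 without 40 °C replicate 1, against -2.76 ± 0.99 with all. MSTRG.8655, a merged locus outside the naming rule given below, had a mean of 13.6 FPKM at 25 °C. Its means were 9.41 at 40 °C and 9.25 with melatonin there. MSTRG.14890 (chromosome 8, 27389138 to 27396973) is also outside that rule. It had 16.9, 18.6 and 17.9 FPKM at 25 °C, 7.66, 6.66 and 6.22 at 40 °C and 13.5, 15.3 and 14.3 at 40 °C with melatonin. It fell by 1.29 ± 0.08 at 40 °C against 25 °C and melatonin there raised it by 0.88 ± 0.08 (edgeR adjusted p = 1.7e-09 and 3.0e-07). Of the 8 amidases tested, 3 were higher and 4 lower at 40 °C against 25 °C, and 2 were higher and 2 lower with melatonin at 40 °C, where 75.9% and 59.1% of all genes were called.

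**Figure D4:**
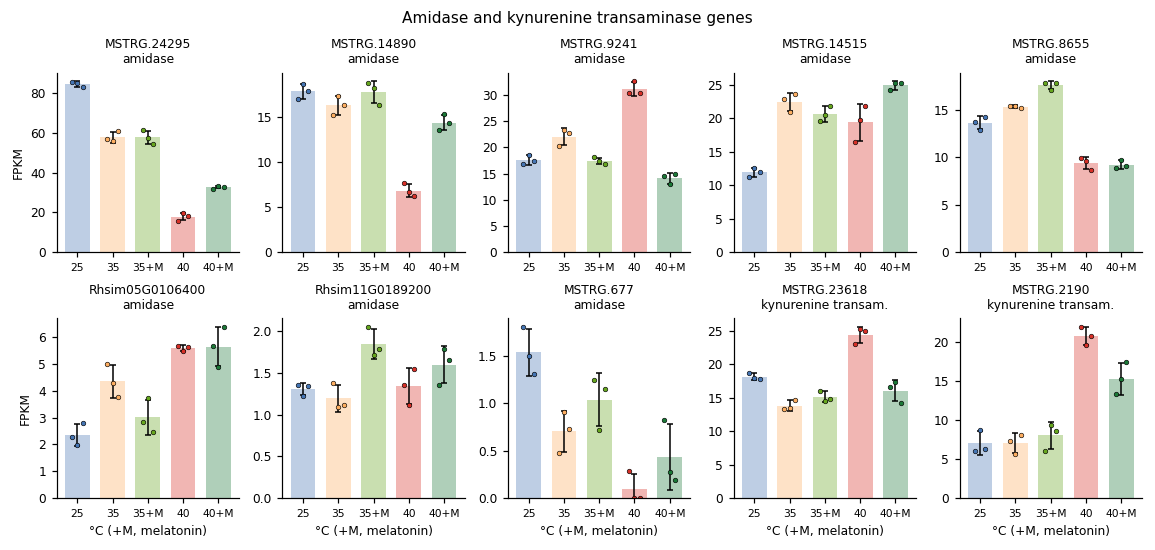
FPKM (y axis) of the 8 tested amidase entries and 2 kynurenine transaminases by group (x axis, temperature in °C, +M for melatonin). Bars give means of 3 libraries, error bars the SD and points the libraries, and MSTRG.24295 goes down from above 82 at 25 °C to under 20 at 40 °C while MSTRG.9241 goes up to above 30.

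Kynurenine transaminases, named for a step of tryptophan breakdown known best from animals, were higher at 40 °C. MSTRG.23618 (contig ctg260, 353055 to 361793), described as an aminotransferase DapC, had 18.7, 18.0 and 17.8 FPKM at 25 °C, 13.4, 13.4 and 14.7 at 35 °C, 23.0, 25.2 and 25.0 at 40 °C and 16.6, 17.3 and 14.3 at 40 °C with melatonin. It was thus lower at 35 °C and higher at 40 °C than at 25 °C, by -0.45 ± 0.08 and 0.52 ± 0.08 on the log2 scale (edgeR adjusted p = 0.00021 and 2.6e-05). Melatonin at 40 °C changed it by -0.80 ± 0.08 (edgeR adjusted p = 5.4e-07). MSTRG.2190, a locus on chromosome 1 merged with a gene of another description, had 5.97, 8.76 and 6.31 FPKM at 25 °C, 21.9, 19.6 and 20.8 at 40 °C and 13.3, 15.3 and 17.4 at 40 °C with melatonin. It rose by 1.66 ± 0.18 at 40 °C against 25 °C (edgeR adjusted p = 8.2e-07) and the melatonin effect there was -0.63 ± 0.17 (edgeR adjusted p = 0.0061, 0.055 in limma on log2(FPKM + 0.1)). The glucosyltransferase Rhsim12G0050300 had 45 to 77 counts per library at 25 °C and 0 in all libraries at 40 °C, with or without melatonin. Its 25 °C level was at least 22.4-fold higher than 3 counts per library at 40 °C without melatonin (edgeR adjusted p = 0.0025). Its call at 40 °C against 35 °C, from 4, 19 and 0 counts, was lost without 35 °C replicate 2 or any 40 °C library (edgeR adjusted p 0.061 to 0.13). The sulfotransferase Rhsim09G0104700, at 0.445 to 2.37 FPKM, was called in no comparison.

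**Figure D5:**
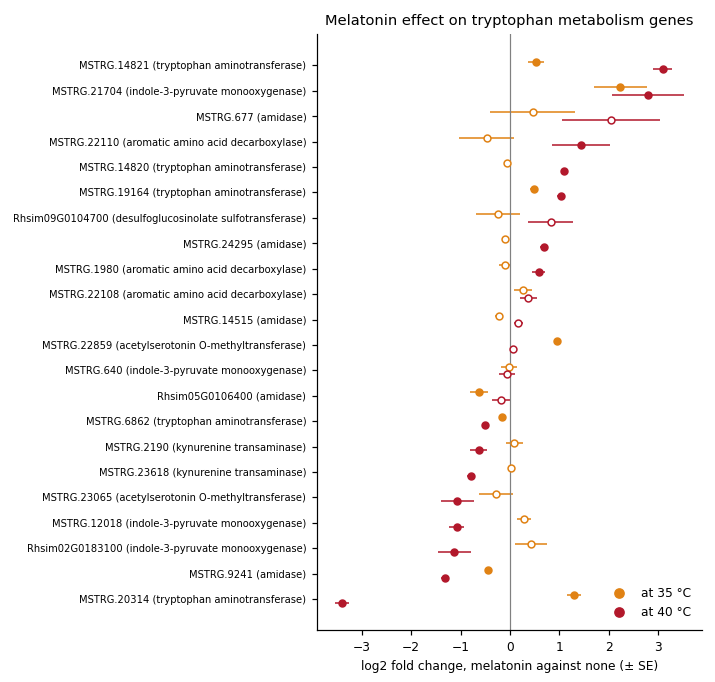
Log2 fold change with melatonin against none (x axis, ± SE) at 35 °C and at 40 °C for 22 of the 24 named members (y axis), leaving out those at 0 counts in a whole group. Filled points passed edgeR's test at adjusted p under 0.05, and MSTRG.20314 lies at 1.297 at 35 °C and -3.41 at 40 °C while MSTRG.14821 lies at 0.53 and 3.09.

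Steps around the pathway were read from lists matched by description among genes that are not members. Of 32 tested genes of chorismate and tryptophan synthesis, 9 were higher and 6 lower at 35 °C against 25 °C, and 18 were higher and 10 lower at 40 °C (median log2 fold changes -0.02 and 0.68). Over all genes 49.1% and 75.9% were called, with medians of 0.01 and -0.01. With melatonin, 6 were higher and 9 lower at 35 °C, and 8 higher and 15 lower at 40 °C (medians -0.12 and -0.28), beside 22% and 59.1% of all genes and medians of 0.00 and 0.10. The list includes an isochorismate synthase, an aminodeoxychorismate synthase and 2 inactive shikimate kinases, which do not lead to tryptophan. The genes named from these lists were chosen after their values were seen. MSTRG.8960, a phospho-2-dehydro-3-deoxyheptonate aldolase, the entry enzyme of the shikimate pathway, went from 59.1 FPKM at 25 °C to 162 at 35 °C and 254 at 40 °C (log2 fold changes 1.39 ± 0.03 and 2.20 ± 0.03). Anthranilate phosphoribosyltransferase MSTRG.14810, of the tryptophan branch itself, went the other way, from 30.2 FPKM at 25 °C to 11.0 at 40 °C and 17.8 with melatonin there (log2 fold changes -1.37 ± 0.07 and 0.50 ± 0.07). MSTRG.15618 and MSTRG.15619, with the same description, instead went from 2.60 and 6.91 FPKM at 25 °C to 5.78 and 11.9 at 40 °C. With melatonin at 40 °C they were at 3.24 and 7.74 FPKM. Rhsim10G0019100, also described alike, stayed at or under 0.4335 FPKM. Shikimate kinase MSTRG.19176 had 18.1, 17.9 and 16.3 FPKM at 25 °C and 0, 0 and 0.0700 at 40 °C. The alpha chain of tryptophan synthase, MSTRG.21791, went from 33.5 to 65.8 FPKM at 40 °C (log2 fold change 1.06 ± 0.05). A beta chain, MSTRG.14200, went from 14.6 to 30.6 FPKM at 40 °C and was at 7.12 with melatonin there (log2 fold changes 1.16 ± 0.07 for heat and -2.29 ± 0.07 for melatonin). Other beta chains moved less. MSTRG.11557 had 5.70 FPKM at 25 °C, 5.95 at 40 °C and 6.51 with melatonin there, and MSTRG.6253 had 17.25, 20.44 and 14.45.

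Of 6 further genes whose description names a caffeic acid or acetylserotonin O-methyltransferase, 2 were tested, and each was higher with melatonin at 40 °C. MSTRG.24247, described both as a reticuline 7-O-methyltransferase and as acetylserotonin O-methyltransferase-like, had 0.960 ± 0.0458 FPKM at 25 °C, 0.313 ± 0.0758 at 40 °C and 4.12 ± 0.969 at 40 °C with melatonin (log2 fold changes -1.51 ± 0.27 for heat and 3.49 ± 0.28 for melatonin). Caffeic acid 3-O-methyltransferase MSTRG.4150, an enzyme of lignin synthesis that can also methylate N-acetylserotonin in Arabidopsis, had 9.60 ± 0.740 FPKM at 25 °C, 6.83 ± 0.467 at 35 °C and 7.02 ± 1.3 at 40 °C. It was at 12.8 ± 0.942 FPKM at 35 °C with melatonin and 16.35 ± 0.565 at 40 °C with melatonin, log2 fold changes of 0.80 and 1.03. In the list of indole-3-acetic acid conjugation and oxidation, 4 of 12 tested genes were higher and 5 lower at 40 °C against 25 °C, and 6 were higher and 4 lower with melatonin at 40 °C, beside 75.9% and 59.1% of all genes called. The list also holds hydrolases of the hormone's amino acid conjugates, the reverse of conjugation, so these counts mix opposite steps. The auxin-amido synthetases MSTRG.14313 and Rhsim13G0033000, which couple the hormone to amino acids, were listed at 0 in all 3 libraries at 25 °C. At 40 °C MSTRG.14313 had 6.58, 6.89 and 8.38 FPKM and with melatonin there 0.163, 0.0435 and 0. Rhsim13G0033000 had 3.71, 3.44 and 3.62 FPKM at 40 °C and 0.504, 0.286 and 0.568 with melatonin. Other auxin-amido synthetases, at lower levels, did not share this pattern. Rhsim06G0190800 had a mean of 0.880 FPKM at 25 °C, 0 at 40 °C and 0.187 with melatonin there. In the same order, RhsimUnG0255100 had 0.421, 0.364 and 0.880 FPKM, and Rhsim13G0012900 had 0, 0.755 and 0.603. MSTRG.15604, described as the auxin-oxidising dioxygenase DAO, went from 69.8 FPKM at 25 °C to 3.62 at 40 °C and 5.56 with melatonin there (log2 fold changes -4.18 and 0.42). That role rests on the description alone, as its KEGG entry, K04124, is of another dioxygenase.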

How the data were processed

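The submitters' processing notes name cutadapt 1.9, HISAT2 2.0.4 and StringTie 1.3.4d, with no role or order, and no genome build was found in the labels or headers. Per the file headers, the authors deposited a count and an FPKM value per gene and library. Counts are whole numbers without normalization, and 58.8 to 63.0% of the counts from 1 to 20 were even, so both mates of a fragment may be counted. For 7006 genes above 1000 counts in every library, 1 factor per gene and 1 per library explained the deposited FPKM from the counts within 0.426%. The CK columns were taken as untreated and the MT columns as melatonin-treated, a reading based on the design text, and 6 further value columns, which match no sample in the labels, were not used.

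Counts were tested with edgeR 4.0.16 (R 4.3.3): TMM scaling, filterByExpr, quasi-likelihood, 5 group means over 15 libraries, no covariates, Benjamini-Hochberg over 26183 genes. The SE is the log2 fold change divided by the root of the F statistic. Printed FPKM are the deposited values without TMM scaling, so a tested log2 fold change can differ from the ratio of the printed levels. Alternatives were RLE scaling, no filter, DESeq2 1.42.0, limma 3.58.1 on log2(FPKM + 1) or + 0.1, a mean FPKM of at least 1, the compared groups alone, a replicate block, halved counts, and leaving out each library.

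Named members are tested decarboxylases and O-methyltransferases reaching 1 FPKM, the most abundant member of each other enzyme group, the 4 largest called rises and falls per comparison among members reaching 1 FPKM, and the 4 smallest adjusted p for the difference of melatonin effects. MSTRG.8655, MSTRG.14890, MSTRG.19163, Rhsim11G0123200, Rhsim11G0123400 and Rhsim13G0041500 are given with values but fall outside this rule. Enzyme groups follow the KEGG entries, since many descriptions name no enzyme. Members and lists were chosen with earlier results of these data known. The marker list for roots matched 0 genes. Floors of 3 counts cover counting error only.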

Additional observations from a re-analysis of the deposited data

Results flagged for a closer look

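In 4 named members the melatonin effect differed between 40 °C and 35 °C by the test of that difference, an interaction contrast in the edgeR fit, with the smallest adjusted p among the members. Aminotransferase MSTRG.20314 had a log2 difference of -4.70, being raised by melatonin at 35 °C and lowered at 40 °C, with no overlap between groups of 3 libraries. MSTRG.14821 had a difference of 2.56, with the larger rise at 40 °C, and its neighbour MSTRG.14820 of 1.15, raised at 40 °C and with a log2 change of -0.05 that did not pass at 35 °C. O-methyltransferase MSTRG.22859 had a difference of -0.88, with its rise at 35 °C. All 4 differences kept their direction and their call in every alternative and without each of the 12 libraries compared. Over all genes tested, 48.5% were called in this contrast.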

How the results depend on the processing

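Of 92 called log2 fold changes of named members, recomputed in 13 to 21 other settings each (1453 values), 0 changed sign and 93 lost their call, spread over 20 of the 92. DESeq2 lost 0 calls, RLE scaling 1, the replicate block 5 and limma on log2(FPKM + 1) 8. Among settings that keep all libraries, counts of called members moved by over 1.5 times only where limma restricted to a mean FPKM of at least 1 called 12 members lower at 40 °C against 25 °C in place of 19, a filter that tests fewer members. Leaving out single libraries gave 6 to 7 higher and 5 to 9 lower at 35 °C, 11 to 11 and 17 to 18 at 40 °C against 25 °C, 9 to 11 and 9 to 12 at 40 °C against 35 °C, 4 to 6 and 1 to 3 with melatonin at 35 °C, 8 to 10 and 9 to 11 at 40 °C, and 6 to 10 and 9 to 12 for the difference. Same-numbered libraries of different groups did not deviate together (correlations -0.08 to 0.04), so replicate numbers were not read as pairs. With the replicate block, besides MSTRG.22110, lost calls were those of MSTRG.16551 at 40 °C against 35 °C and with melatonin at 40 °C, and of Rhsim12G0050300 at 40 °C against 35 °C (adjusted p 0.059 to 0.062). For members that drop to 0 counts in some libraries, few counts limit the fold changes.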
